A study of Rattus norvegicus with 12 samples.

Results

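The CCN family of matricellular proteins was followed in NRK-52E, a renal line from rat that is labelled as tubular epithelial, through the 5 genes Ccn1, Ccn2, Ccn3, Ccn4 and Ccn5 of the 24660 genes in the deposited count table. The family was chosen because Ccn2 was the single gene past an adjusted p of 0.05 between cells given 3D-EVs and cells given 2D-EVs, so the differences of Ccn2 that involve vesicle libraries are given below as values without a test. The other 4 genes were chosen by family and not by value. All 5 were listed in the table, and 4 were expressed highly enough to be tested. Ccn3 was not.

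The 4 groups held 3 libraries each, all of NRK-52E cells labelled WT. In 3D-EV cells, TGF-beta1 for 24 h was followed by 48 h with extracellular vesicles labelled 3D-EVs, at 500000000 particles/ml. In 2D-EV cells the same TGF-beta1 treatment was followed by 48 h with vesicles of the conventional 2D preparation at the same particle number. TGF-beta1 cells are labelled with the cytokine alone for 24 h. The labels give 10 µg/ml for every group that received TGF-beta1, vesicle groups included, a unit far above the ng/ml range usual for this cytokine. Control cells are labelled with no agent. The cells that produced the vesicles, the presence of TGF-beta1 during the vesicle period and the harvest times of TGF-beta1 and control cells are not stated by the labels, so vesicles, time and the end of the TGF-beta1 exposure cannot be told apart. The labels do not say that the 3 libraries of a group came from separate cultures, so the p-values rest on a spread among libraries that may be purely technical.

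CCN proteins are secreted, cysteine-rich modular proteins that sit in the extracellular matrix and act through integrins, heparan sulfate proteoglycans and growth factors rather than as structural matrix. Ccn2, formerly connective tissue growth factor, is a classical target of TGF-beta signalling and of the YAP and TAZ coactivators, and is widely used as a marker of fibrotic signalling in the kidney. Ccn1, formerly Cyr61, is an immediate early gene that also responds to YAP, TAZ and serum response factor. Ccn4 and Ccn5, formerly Wisp1 and Wisp2, were first described as Wnt-induced, and Ccn3, formerly Nov, opposes Ccn2 in several kidney models. Ccn5 lacks the carboxy-terminal cystine knot domain of the others.

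Library totals lay between 32888125 and 39754319 counts, and 1 count stood for 0.0255 to 0.0305 CPM (the usual depth-scaled counts, with TMM scaling between libraries). Where a library held no count of a gene, the limit was 3 counts, which is 0.0764 to 0.0916 CPM depending on the library, and such limits cover counting error alone. Of 16 tubular epithelial markers, 3 exceeded 1 CPM in all 12 libraries, namely the keratin Krt8 (1007 to 1252 CPM), the brush border enzyme Ggt1 and the water channel Aqp1. Epcam, Pax2 and Umod were at 0 in all libraries, and the epithelial cadherin Cdh1 reached no more than 0.840 CPM. Of 8 fibroblast and pericyte markers, 4 exceeded 1 CPM in all libraries, among them Mfap5 (529 to 598 CPM). Of the others, Dcn, Lum and Pdgfra reached no more than 0.0569, 0.183 and 0.288 CPM, and Thy1 ran from 0.280 to 1.44 CPM. The cells are therefore called by the name of the line.

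RefSeq promoter windows (assembly GRCr8, 250 bases before to 50 after the annotated start) were held for 2 of the 5 genes, Ccn2 and Ccn1. They are shown because no window was held for the other members. Both genes are known TEAD targets, and they give the family's most abundant transcripts. Capitals mark matches to the TEAD core GGAATG or its reverse complement CATTCC. The Ccn2 window lies at chr1:22624565-22624864 and the Ccn1 window at chr2:237225640-237225939, both on the minus strand and printed 5′ to 3′ along the gene.
Ccn2: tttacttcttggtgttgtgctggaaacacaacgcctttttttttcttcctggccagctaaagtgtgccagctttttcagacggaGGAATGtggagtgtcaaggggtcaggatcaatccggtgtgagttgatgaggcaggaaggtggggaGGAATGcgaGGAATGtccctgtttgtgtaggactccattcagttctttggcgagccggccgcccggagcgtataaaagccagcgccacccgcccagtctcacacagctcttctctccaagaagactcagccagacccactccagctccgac
Ccn1: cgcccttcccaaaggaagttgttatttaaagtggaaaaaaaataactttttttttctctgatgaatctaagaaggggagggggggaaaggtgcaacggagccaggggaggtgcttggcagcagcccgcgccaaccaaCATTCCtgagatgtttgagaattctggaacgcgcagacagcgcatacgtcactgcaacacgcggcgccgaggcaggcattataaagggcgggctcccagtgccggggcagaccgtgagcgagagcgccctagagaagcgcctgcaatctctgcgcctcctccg

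The Ccn2 window held 3 TEAD matches, all on the strand of the gene, beginning 166, 101 and 92 bases before the start. The nearer pair began 9 bases apart. The Ccn1 window held 1 TEAD match, on the opposite strand, beginning 113 bases before the start. Of the 33469 rat promoter windows of this length, 14.2% held at least 1 TEAD match and 0.0956% held at least 3. The full SMAD box CAGACA occurred once in the Ccn1 window, on the strand of the gene, and not in the Ccn2 window. On either strand, 21.1% of all windows held it. Shorter runs were not counted in either window, such as the cagac printed just before the first TEAD match of Ccn2. The absence of the full run therefore does not show that the Ccn2 window lacks a SMAD site. The palindrome GTCTAGAC (0.197% of windows), the AP-1 motif TGANTCA (7.33%) and the TCF motif CTTTGAT (3.63%) were found in neither window. Each motif was searched on both strands, none of those spelled out overlapped another in these windows, and a match is a run of letters and not a measured binding site.

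**Figure D1:**
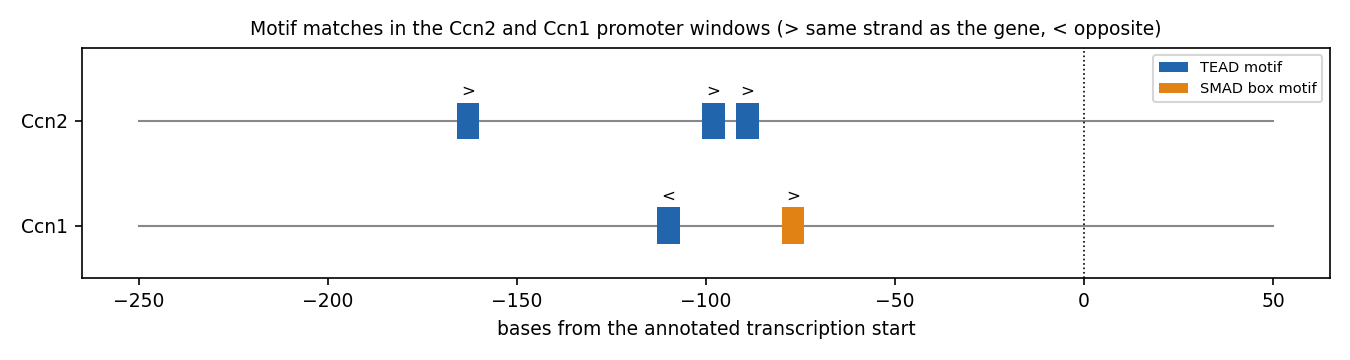
Matches to the TEAD and SMAD box motifs in the promoter windows of Ccn2 and Ccn1, plotted by distance in bases from the annotated transcription start. Ccn2 carried 3 TEAD matches and Ccn1 carried 1. The full SMAD box CAGACA matched in Ccn1 alone, and shorter forms of it were not searched.

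Ccn2 was among the most abundant transcripts of the cells. It took 0.285 to 0.408% of all counts of a library and stood at rank 11 to 15 of all genes by count. Ccn2 read 4067, 4139 and 4012 CPM in 3D-EV cells, 3385, 3438 and 3530 CPM in 2D-EV cells, 4115, 4075 and 3990 CPM in TGF-beta1 cells, and 2832, 2765 and 2871 CPM in control cells. The 3D-EV and TGF-beta1 libraries overlapped at the top, all 2D-EV libraries lay below both, and all control libraries lay below those of the other 3 groups. Within a group the coefficient of variation of Ccn2 was 1.57 to 2.12%.

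TGF-beta1 cells were compared with control cells to see which genes answered the cytokine. Neither group received vesicles, but the scaling and the estimate of spread came from all 12 libraries. Ccn2 rose 1.44-fold, to 4060.1 ± 63.6 CPM in TGF-beta1 cells against 2823 ± 53.4 CPM in control cells (SD, n = 3 each; log2 fold change 0.52, SE 0.025, edgeR adjusted p = 3.4e-09). In an edgeR fit of the TGF-beta1 and control libraries alone the log2 fold change of Ccn2 was 0.53 (adjusted p = 7.9e-07). Ccn4, a secreted matrix-associated factor linked to epithelial repair and fibrosis, rose by nearly the same factor. Its libraries read 488, 494 and 514 CPM in TGF-beta1 cells, against 343, 349 and 340 CPM in control cells. The groups did not overlap, and the change was 1.45-fold (log2 fold change 0.54, SE 0.030, edgeR adjusted p = 1.5e-08). Ccn2 and Ccn4 were thus the 2 of 4 tested members that rose, where 11.8% of all 14184 tested genes rose, and 0 members fell, where 10.2% of all genes fell.

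Ccn1 had a smaller fold difference in this comparison than Ccn2. It read 884, 853 and 911 CPM in TGF-beta1 cells, against 813, 792 and 804 CPM in control cells. The libraries did not overlap, but 19.1% of all tested genes were higher in TGF-beta1 cells without overlap, and the 1.10-fold difference did not pass (log2 fold change 0.14, SE 0.053, edgeR adjusted p = 0.0860). It passed with DESeq2 (adjusted p = 0.0405) and in an edgeR fit of these 2 groups alone (adjusted p = 0.0104), with the same fold. The counts of Ccn1 relative to those of Ccn2 in the same library do not depend on scaling between libraries. Per 100 Ccn2 counts there were 21.5, 20.9 and 22.8 Ccn1 counts in TGF-beta1 cells, against 28.7, 28.6 and 28.0 in control cells. The log2 ratio was lower by 0.39 in TGF-beta1 cells in a two-sided exact permutation test (p = 0.1, the smallest that 3 against 3 libraries can give).

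Ccn5, the member without the carboxy-terminal domain, was expressed at a lower level, 17.3 to 20.9 CPM over all 12 libraries (606 to 744 counts). It read 19.8, 19.8 and 19.0 CPM in TGF-beta1 cells, against 20.9, 18.6 and 20.8 CPM in control cells. The groups overlapped, the log2 fold change was -0.042 (SE 0.074, edgeR adjusted p = 0.751), and the 95% interval ran from 0.870-fold to 1.08-fold. Ccn3 held 15 counts in all, with 0 to 9 per library and 4 of 12 libraries above 0, 2 of them TGF-beta1 libraries, 1 a 2D-EV library and 1 a control library. No fold change of Ccn3 can be given. Ccn6, the sixth gene of the family in the table and not among the 5, held 0 to 12 counts per library.

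**Figure D2:**
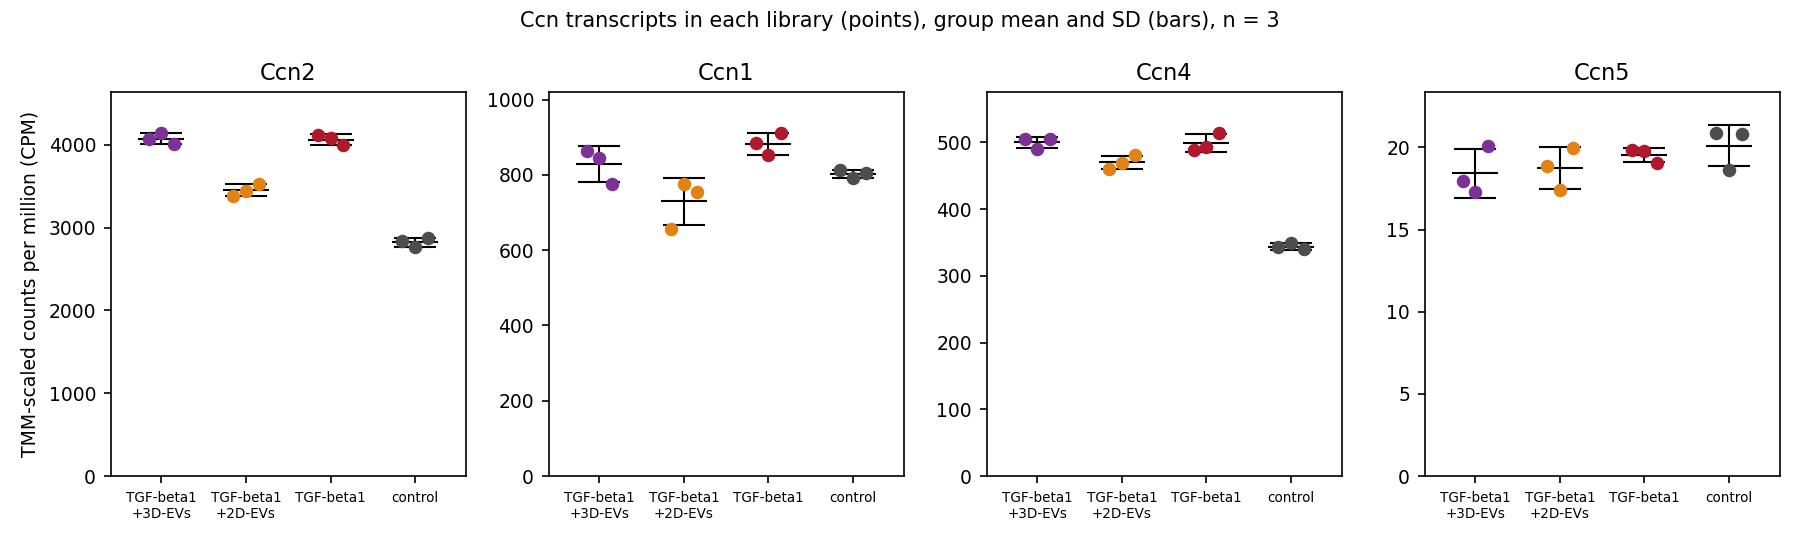
TMM-scaled CPM of Ccn2, Ccn1, Ccn4 and Ccn5 in each of the 12 libraries (points), with group means and SD (bars, n = 3) and vertical axes that start at 0. Ccn2 stood at 3385 to 3530 CPM in 2D-EV cells, below 3D-EV and TGF-beta1 cells, while Ccn5 overlapped across all groups.

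The contrast that chose the family set 3D-EV cells beside 2D-EV cells. Ccn2 averaged 4072 ± 63.7 CPM in 3D-EV cells and 3451 ± 73.2 CPM in 2D-EV cells (SD, n = 3 each), a 1.18-fold difference (log2 0.24, SE 0.025). This was the single gene called of 14184 (0.00705%), by the rule itself. The gene nearest to the threshold on the other side was Acta2, the smooth muscle actin of myofibroblasts. Acta2 read 826, 837 and 853 CPM in 3D-EV cells, against 709, 731 and 730 CPM in 2D-EV cells. In the same contrast Ccn1 averaged 828 ± 47.3 CPM in 3D-EV cells and 729 ± 63.5 CPM in 2D-EV cells, with overlapping libraries. Ccn4 averaged 499.8 ± 8.73 CPM in 3D-EV cells and 470.2 ± 9.89 CPM in 2D-EV cells, without overlap, as 5.67% of all genes were higher without overlap. Ccn5 averaged 18.4 ± 1.48 CPM in 3D-EV cells and 18.7 ± 1.27 CPM in 2D-EV cells. With DESeq2, 35 genes passed in this contrast rather than 1, so the position of Ccn2 as the only gene depends on the tool.

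Setting 2D-EV beside TGF-beta1 cells asked what differed once the conventional vesicles had been added. Both vesicle groups are compared with the same 3 TGF-beta1 libraries and the same 3 control libraries. Ccn2 averaged 3451 ± 73.2 CPM in 2D-EV cells and 4060.1 ± 63.6 CPM in TGF-beta1 cells (SD, n = 3 each), a difference of -15.0% (log2 -0.23, SE 0.025), with no overlap. The 2D-EV libraries are among those that chose Ccn2, so this is a description. Over all genes 4 passed in edgeR (0.0282% of those tested), against 54 with DESeq2, 14 in edgeR without the filter on low counts and 1 to 3 without 1 library. On the CPM scale, 2D-EV cells stood 628 CPM above control cells, against 1237 CPM for TGF-beta1 cells, so that 50.8% of the TGF-beta1 difference was present. In bulk samples, fewer cells that express a gene and less of its RNA per cell cannot be told apart.

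Ccn1 read 657, 776 and 755 CPM in 2D-EV cells, against 884, 853 and 911 CPM in TGF-beta1 cells. All 2D-EV libraries were lower, as they were for 6.23% of all genes tested, and replicate 1 lay furthest down. The log2 fold change was -0.27 (SE 0.054, edgeR adjusted p = 0.101) and did not pass, while DESeq2 (adjusted p = 0.000189) and edgeR without a filter on low counts (adjusted p = 0.0122) passed it at the same fold. Ccn4 read 461, 469 and 480 CPM in 2D-EV cells, against 488, 494 and 514 CPM in TGF-beta1 cells. These libraries did not overlap either, but the log2 fold change of -0.085 (SE 0.030) did not pass (edgeR adjusted p = 0.524, and not in the other tools run). Ccn5 overlapped between 2D-EV and TGF-beta1 cells (log2 fold change -0.061, SE 0.075, edgeR adjusted p = 0.916). By edgeR 0 of the 3 tested members other than Ccn2 passed, while 2 of them, Ccn1 and Ccn4, had an unadjusted p below 0.05, as 7.1% of all genes tested did.

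In the comparison of the 3D preparation with the cytokine alone, Ccn2 averaged 4072 ± 63.7 CPM in 3D-EV cells and 4060.1 ± 63.6 CPM in TGF-beta1 cells (SD, n = 3 each), with overlapping libraries. The fold was 1.00 (log2 0.0043, SE 0.025). Ccn4 averaged 499.8 ± 8.73 CPM in 3D-EV cells and 498.6 ± 13.4 CPM in TGF-beta1 cells, again with overlap (95% interval of the fold 0.959 to 1.05, edgeR adjusted p = 0.991). Ccn1 read 865, 845 and 775 CPM in 3D-EV cells, against 884, 853 and 911 CPM in TGF-beta1 cells, with 1 library of 3D-EV cells inside the TGF-beta1 range. Its fold of 0.939 (95% interval 0.867 to 1.02) did not pass (edgeR adjusted p = 0.745). Ccn5 averaged 18.4 ± 1.48 CPM in 3D-EV cells and 19.5 ± 0.436 CPM in TGF-beta1 cells (edgeR adjusted p = 0.860). Over all genes 0 of 14184 passed in edgeR (0%), with 1027 (7.24%) at an unadjusted p below 0.05, while DESeq2 passed 20 and limma-voom 0.

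**Figure D3:**
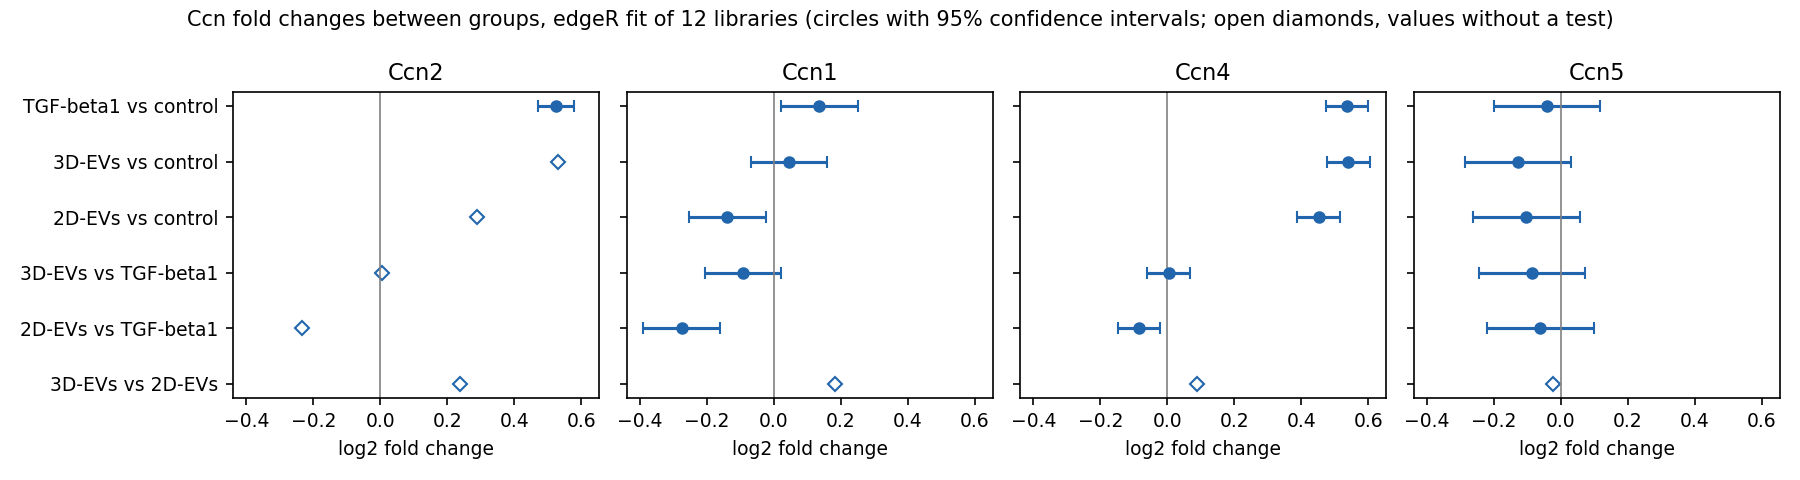
Log2 fold changes of Ccn2, Ccn1, Ccn4 and Ccn5 between groups (first-named group over second) from the edgeR fit of 12 libraries, as circles with 95% confidence intervals, or as open diamonds without an interval for 3D-EVs over 2D-EVs and for Ccn2 wherever vesicle libraries enter, which are values without a test. The Ccn2 estimate was 0.24 for 3D-EVs over 2D-EVs, -0.23 for 2D-EVs over TGF-beta1 and near 0 for 3D-EVs over TGF-beta1.

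Against control cells, Ccn4 was higher in both vesicle groups. Ccn4 rose to 499.8 ± 8.73 CPM in 3D-EV cells against 343.9 ± 5.03 CPM in control cells (1.45-fold, edgeR adjusted p = 1.4e-08). It rose to 470.2 ± 9.89 CPM in 2D-EV cells against the same control level (1.37-fold, edgeR adjusted p = 1.4e-07). Higher calls made up 12.2% of genes in 3D-EV cells and 10.5% in 2D-EV cells. Ccn2 averaged 1.44-fold the control level in 3D-EV cells and 1.22-fold in 2D-EV cells, as a description. Of the Ccn4 difference between TGF-beta1 and control cells, 81.6% was present in 2D-EV cells and 101% in 3D-EV cells.

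Ccn1 took another place in this order. Its level in 2D-EV cells lay below that of control cells, at 657 to 776 CPM in 2D-EV cells against 792 to 813 CPM in control cells, without overlap, as 16.1% of genes did. The log2 fold change of -0.14 (SE 0.053) did not pass in edgeR (adjusted p = 0.0896), and passed with DESeq2 (adjusted p = 0.0450) or without 2D-EV replicate 2 (edgeR adjusted p = 0.0412). Without 2D-EV replicate 1 the log2 fold change was -0.069 (edgeR adjusted p = 0.336). In 3D-EV cells Ccn1 overlapped with control cells (log2 fold change 0.045, SE 0.053, edgeR adjusted p = 0.613). By mean level Ccn1 ran from TGF-beta1 cells through 3D-EV cells and control cells to 2D-EV cells, and the neighbours in that order overlapped except control and 2D-EV cells. Ccn5 did not pass against control in 3D-EV cells (log2 fold change -0.13, edgeR adjusted p = 0.253) or in 2D-EV cells (-0.10, edgeR adjusted p = 0.398).

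Within libraries, the makeup of the family shifted between control cells and the other groups. Ccn2 supplied 74.6 to 75.5% of the counts of the 5 genes in 3D-EV cells, 73.1 to 74.9% in 2D-EV cells, 73.4 to 74.9% in TGF-beta1 cells and 70.4 to 71.1% in control cells. These shares are of counts, without division by transcript length. Per 100 Ccn2 counts, Ccn1 stood at 19.3 to 21.3 in 3D-EV cells, 19.4 to 22.6 in 2D-EV cells, 20.9 to 22.8 in TGF-beta1 cells and 28.0 to 28.7 in control cells. The 3 groups given TGF-beta1 overlapped in this ratio, although Ccn2 itself was lower in 2D-EV cells. Ccn4 showed the other pattern. It stood at 11.8 to 12.6 per 100 Ccn2 counts in 3D-EV cells, 13.6 to 13.7 in 2D-EV cells, 11.9 to 12.9 in TGF-beta1 cells and 11.8 to 12.6 in control cells. The 2D-EV libraries were the ones set apart there, and since Ccn2 was chosen for its level in these libraries, no test was made.

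**Figure D4:**
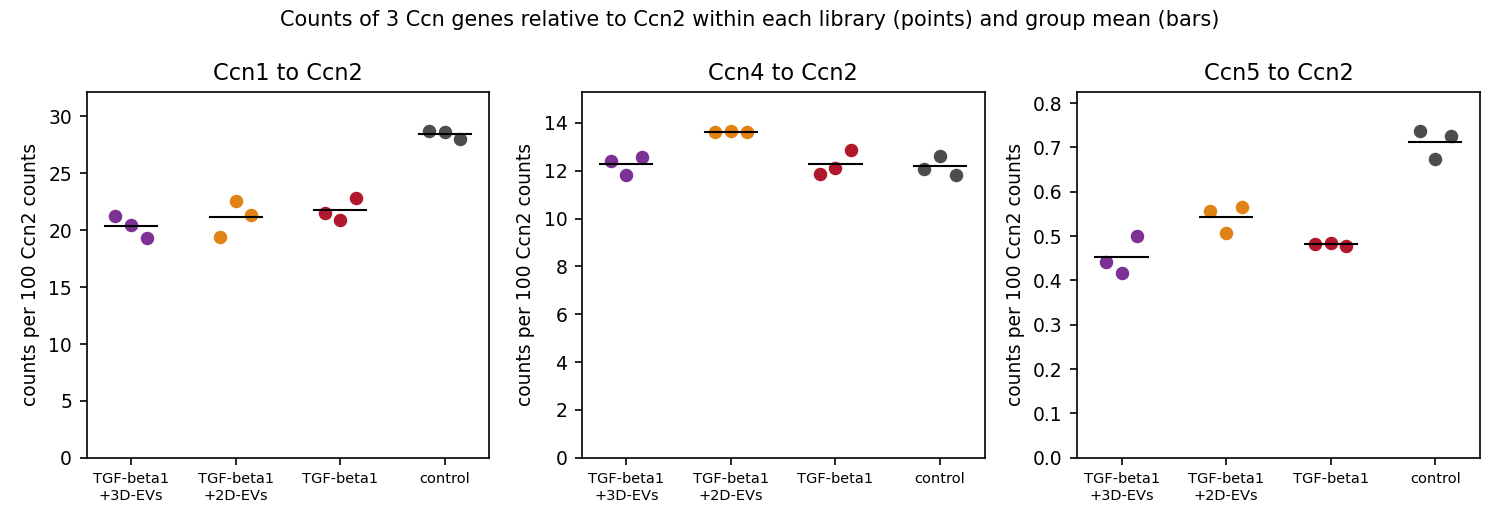
Counts of Ccn1, Ccn4 and Ccn5 per 100 Ccn2 counts in each library (points) with group means (bars) and axes that start at 0. The Ccn1 ratio was 28.0 to 28.7 in control cells and at most 22.8 in all other libraries, while the Ccn4 ratio was highest in 2D-EV cells, at 13.6 to 13.7.

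Levels of other genes were set beside the family by Pearson correlation of log2 CPM over the 12 libraries, among 8622 named genes with a mean of at least 10 CPM. The libraries fall into 4 groups, so these values mostly describe group means. The gene most like Ccn2 was Acta2 (r = 0.99), which averaged 838 ± 13.9 CPM in 3D-EV cells, 723 ± 12.6 CPM in 2D-EV cells, 861 ± 12.9 CPM in TGF-beta1 cells and 585 ± 26.0 CPM in control cells. It shared the order of Ccn2 up to the top pair, which stood close in both genes. Pmaip1, a BH3-only apoptosis gene, Olr1, a receptor for oxidised lipoprotein, Filip1l, a filamin-binding protein, and Clic4, an intracellular chloride channel protein, followed at r = 0.98 each. Ccn4 was most like Calu, an endoplasmic reticulum calcium-binding protein (r = 0.99), and Cnn3, a calponin (r = 0.99).

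Ccn1 had weaker likenesses, the highest with Srf, serum response factor (r = 0.84), Uck2, a uridine-cytidine kinase (r = 0.82), and Gatad1 (r = 0.82). Srf averaged 83.4 ± 2.48 CPM in 3D-EV cells, 80.2 ± 6.44 CPM in 2D-EV cells, 89.2 ± 3.01 CPM in TGF-beta1 cells and 82.9 ± 2.29 CPM in control cells. Ccn5 was most like Tsc22d4 (r = 0.88), Pef1 (r = 0.86) and Wrap73 (r = 0.82). Among the members, Ccn2 and Ccn4 had r = 0.94 over all 12 libraries but -0.33 for deviations from group means, and Ccn2 and Ccn1 had 0.41 and 0.43.

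Genes around the Ccn family, from receptors and partners to regulators and their other targets, were described from 9 lists, by counts and medians. Rose and fell stand for an edgeR adjusted p below 0.05. Of their 139 tested genes, 26.6% rose and 17.3% fell in TGF-beta1 against control cells, where 11.8% and 10.2% of all genes did, and the median log2 fold change of all genes was -0.0050. Among 16 receptors and co-receptors 6 rose and 2 fell (median log2 fold change 0.18). Itgb5, the integrin beta 5 subunit, rose to 1144 ± 35.8 CPM in TGF-beta1 cells against 770.0 ± 34.9 CPM in control cells (SD, n = 3 each). Itga6, the laminin-binding alpha 6 subunit, rose to 220.3 ± 6.08 CPM in TGF-beta1 cells against 164.8 ± 2.70 CPM in control cells. Cav1, the coat protein of caveolae held in the same list, fell to 802 ± 18.5 CPM in TGF-beta1 cells against 1134 ± 24.97 CPM in control cells.

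Upstream of the family, the YAP, TAZ and TEAD machinery had 2 of 21 genes higher and 6 lower (median -0.044). Lats2, a kinase that restrains YAP and is itself a YAP target, rose to 231 ± 4.76 CPM in TGF-beta1 cells against 191 ± 5.65 CPM in control cells. Wwc1, known as KIBRA, fell to 59.0 ± 1.36 CPM in TGF-beta1 cells against 81.1 ± 2.94 CPM in control cells, and Nf2, merlin, fell to 80.1 ± 1.33 CPM in TGF-beta1 cells against 91.8 ± 2.05 CPM in control cells. Of 18 YAP target genes outside the family, 5 rose and 1 fell (median 0.028). The number that rose was 3 to 6 over the other settings. Ankrd1, a cardiac and injury-induced ankyrin repeat protein, rose to 68.7 ± 5.75 CPM in TGF-beta1 cells against 40.1 ± 5.29 CPM in control cells, and Tgfb2 rose 1.24-fold. Ccdc80, a secreted matrix protein, fell to 2287 ± 56.7 CPM in TGF-beta1 cells against 2516 ± 67.3 CPM in control cells.

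The TGF-beta and SMAD list split, with 7 of 21 genes up and 6 down (median -0.036). Tgfb1 rose to 187 ± 1.00 CPM in TGF-beta1 cells against 114 ± 8.08 CPM in control cells, and Ltbp2, a latent TGF-beta binding protein, rose to 96.9 ± 0.932 CPM in TGF-beta1 cells against 64.5 ± 1.64 CPM in control cells. Of 16 SRF and MRTF targets 10 rose and 0 fell (edgeR; 9 to 11 rose and 0 fell over the other settings; median 0.19). Acta2 and Tagln, the smooth muscle protein transgelin, had the smallest p-values of these, Tagln at 619 ± 14.8 CPM in TGF-beta1 cells against 403 ± 16.6 CPM in control cells. Cald1, caldesmon, rose to 924 ± 25.1 CPM in TGF-beta1 cells against 709.5 ± 11.97 CPM in control cells. Of 17 AP-1 and immediate early genes 0 rose and 4 fell (edgeR; 0 to 1 rose and 1 to 5 fell over the other settings; median -0.17).

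The immediate early falls were the least firm. Klf6 averaged 14.4 ± 0.313 CPM in TGF-beta1 cells against 45.6 ± 29.6 CPM in control cells, where 1 library stood at 11.5 CPM, and limma-voom did not pass it (adjusted p = 0.101). Ier5 (46.5 ± 1.24 CPM in TGF-beta1 cells against 54.3 ± 1.80 CPM in control cells) and Klf4 (18.3 ± 2.54 CPM in TGF-beta1 cells against 23.0 ± 1.68 CPM in control cells) lost their calls when replicate 2 or 3 of the control group, or of the TGF-beta1 group, was left out, with adjusted p up to 0.0717 and 0.156.

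Among 10 tested matrix and growth factor partners 3 rose and 2 fell (median 0.094). Fn1, fibronectin, to which CCN2 binds, rose to 935 ± 29.7 CPM in TGF-beta1 cells against 585 ± 40.3 CPM in control cells. Tgfb3 (447 ± 11.5 CPM in TGF-beta1 cells against 584 ± 6.68 CPM in control cells) and Bmp4, a ligand that CCN2 can bind (95.5 ± 3.43 CPM in TGF-beta1 cells against 123 ± 2.64 CPM in control cells), fell. Of 7 tested proteases 2 rose and 1 fell (median 0.14). Bmp1, a procollagen proteinase (224 ± 7.49 CPM in TGF-beta1 cells against 177 ± 9.67 CPM in control cells), and Plat, tissue plasminogen activator (702 ± 29.1 CPM in TGF-beta1 cells against 595 ± 44.2 CPM in control cells), rose, and Mmp2, gelatinase A (24.1 ± 1.56 CPM in TGF-beta1 cells against 34.7 ± 4.66 CPM in control cells), fell. Of 13 Wnt genes 2 rose and 2 fell (median -0.053), with Nkd1, a Wnt feedback inhibitor, at 12.5 ± 1.08 CPM in TGF-beta1 cells against 6.66 ± 0.892 CPM in control cells. Tcf7 rose (53.4 ± 2.49 CPM in TGF-beta1 cells against 44.1 ± 3.18 CPM in control cells) and Tcf7l2 fell (24.4 ± 0.912 CPM in TGF-beta1 cells against 30.9 ± 1.45 CPM in control cells).

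**Figure D5:**
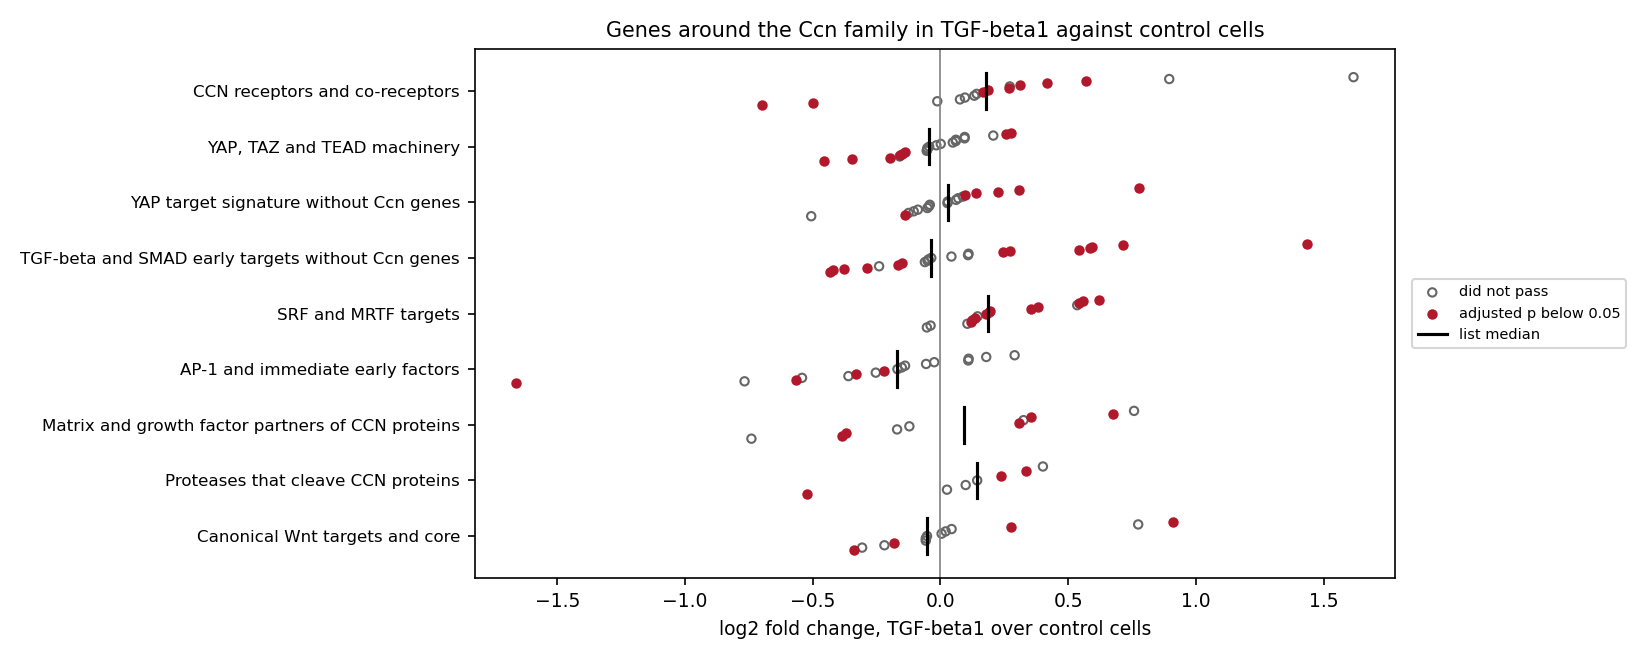
Log2 fold change of TGF-beta1 over control cells for every tested gene of 9 lists around the Ccn family (points, filled where adjusted p was below 0.05) with list medians (bars). The SRF and MRTF targets had 10 of 16 genes higher and 0 lower in edgeR, and the TGF-beta and SMAD list had 7 higher and 6 lower of 21.

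In 2D-EV against TGF-beta1 cells, 1 of the 139 listed genes passed, where 0.0282% of all genes did. This was Acta2, which fell to 723 ± 12.6 CPM in 2D-EV cells against 861 ± 12.9 CPM in TGF-beta1 cells (log2 fold change -0.25, SE 0.032, edgeR adjusted p = 0.0102). Acta2 was also the gene nearest to the threshold in the contrast that chose the family, which holds the same 2D-EV libraries. The lists were drawn with earlier results known, so the share of listed genes is a description and no excess is read from it. The call was lost without TGF-beta1 replicate 2, 2D-EV replicate 1 or 2D-EV replicate 2 (adjusted p up to 0.0696). The median of the SRF and MRTF targets, Acta2 among them, was -0.15 in 2D-EV and -0.027 in 3D-EV cells, each against TGF-beta1 cells. That of the YAP targets was -0.026 in 2D-EV and -0.0023 in 3D-EV cells, and that of all genes 0.0014 and -0.00022. Medians of the remaining lists ran from -0.048 to 0.076 in 2D-EV cells and from -0.052 to 0.13 in 3D-EV cells. Ankrd1 averaged 72.2 ± 5.33 CPM in 3D-EV cells, 56.4 ± 6.95 CPM in 2D-EV cells and 68.7 ± 5.75 CPM in TGF-beta1 cells. Of the other YAP targets named above, Ccdc80 averaged 2354 ± 83.7, 2287 ± 53.7 and 2287 ± 56.7 CPM in the same order of groups. Tgfb2 averaged 154.5 ± 6.01, 141 ± 2.87 and 145 ± 1.77 CPM. In 3D-EV against TGF-beta1 cells 0 of the 139 listed genes passed in edgeR.

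Summed levels of cell type markers differed between some of these groups. The summed level of 8 immune markers was 247 to 249.7 CPM in 3D-EV cells, 221 to 234 CPM in 2D-EV cells, 247 to 254 CPM in TGF-beta1 cells and 181 to 196 CPM in control cells. Of these 8, Ptprc, C1qa, C1qb, Itgam and Tyrobp were at 0 in all 12 libraries, and Cd14 (177 to 251 CPM) made up most of the sum. The summed level of 6 endothelial markers was 15.4 to 16.1 CPM in TGF-beta1 cells and 12.4 to 13.6 CPM in control cells. In 3D-EV cells this sum was 15.2 to 17.5 CPM, and in 2D-EV cells 15.8 to 16.9 CPM. Pecam1, Cdh5 and Kdr stayed at or below 0.446 CPM, and Egfl7 (9.78 to 14.7 CPM) made up most of the sum. The sum of 8 fibroblast and pericyte markers was 787 to 831 CPM in 3D-EV cells, 763 to 781 CPM in 2D-EV cells, 759 to 784 CPM in TGF-beta1 cells and 778 to 832 CPM in control cells. The sum of 8 mesenchymal stromal markers was 153 to 162 CPM in 3D-EV cells, 144 to 158 CPM in 2D-EV cells, 140.0 to 150.5 CPM in TGF-beta1 cells and 128 to 137 CPM in control cells, with Prrx1 at 0 in all libraries. The sum of 16 tubular epithelial markers was 1497 to 1561 CPM in TGF-beta1 cells and 1190 to 1220 CPM in control cells. In 3D-EV cells the tubular sum was 1462 to 1522 CPM, and in 2D-EV cells 1476 to 1514 CPM. Single genes made up most of these sums too. They were Krt8 (1007 to 1252 CPM) in the tubular, Mfap5 (529 to 598 CPM) in the fibroblast and Cd44 (96.3 to 137 CPM) in the stromal sum. The part of these markers in the Ccn differences was not tested.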

How the data were processed

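Total RNA of 12 libraries was sequenced. The deposited values are whole-number counts per gene made by the authors, without normalization. Build mRatBN7.2 and the programs fastp, HISAT2, StringTie and DESeq2 are listed per the submitters' processing notes, without versions, strand handling or annotation. Each of the 12 tables per library held the same values as the joint one, with 0 unused columns. A count of 1 was rarer (1514 cells) than a count of 2 (5687 cells). The limit of 3 counts takes counts as independent single units, so it may be too low.

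The tests used edgeR 4.0.16 under R 4.3.3. Genes were kept by filterByExpr (minimum count 10; 14184 of 24660 kept), scaled by TMM, and fitted as 4 group means over all 12 libraries. Contrasts were tested by the quasi-likelihood F-test, with Benjamini-Hochberg adjustment over all tested genes and a threshold of 0.05. Alternatives were RLE factors, no filter, DESeq2 1.42.0, limma-voom (limma 3.58.1), fits of 2 groups, a replicate block and leaving out each library. Standard errors are the log2 fold change divided by the square root of F, and intervals are at 95%.

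The members, gene lists and tests were chosen with earlier results of these data known. Named list genes were the 3 of each list with the smallest p in TGF-beta1 against control cells and those called against TGF-beta1 cells. The likeness rule took the 5 genes nearest to Ccn2 and the 3 nearest to each other member. A gene that these rules name is not reported here. The 5 members matched the RefSeq table by symbol, 2 of them with a promoter entry, on another build (GRCr8) than the counts. Strand-unaware counting, if used, would mix overlapping genes.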

Additional observations from a re-analysis of the deposited data

How the results depend on the processing

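Over 6 other settings and the removal of each library, Ccn2 and Ccn4 kept their rise in TGF-beta1 cells (log2 fold change 0.51 to 0.54 and 0.51 to 0.55 without 1 library; highest adjusted p 7.9e-07 and 2.4e-06), and Ccn5 passed in none of the tests run (3D-EV against 2D-EV cells was not tested, and DESeq2 gave no adjusted p in 3D-EV against TGF-beta1 cells). Ccn1 crossed the threshold in places, with little change in size between tools and more when single libraries were left out. In TGF-beta1 against control cells it passed in the fit of 2 groups (0.137) and DESeq2 (0.138), and its range without 1 library was 0.113 to 0.160. In 2D-EV against TGF-beta1 cells it passed without the filter (-0.275) and with DESeq2 (-0.276), and the range without 1 library was -0.324 to -0.205. In 2D-EV against control cells it passed with DESeq2 (-0.138) and in 1 of 6 removals (range -0.186 to -0.069). The cause was not tested. Ccn4 in 3D-EV against TGF-beta1 cells ranged from -0.012 to 0.026 without 1 library and so changed sign around 0. The difference in mean Ccn1 to Ccn2 log2 ratio between TGF-beta1 and control cells ranged from -0.424 to -0.362 without 1 library.

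Called genes numbered 4 in 2D-EV against TGF-beta1 cells, but 14 without the filter, 7 in the fit of 2 groups, 9 with limma-voom, 54 with DESeq2 and 1 to 3 without 1 library. In 3D-EV against 2D-EV cells 1 gene was called, but 8 without the filter, 2 with the fit of 2 groups, limma-voom or the replicate block, 35 with DESeq2 and 1 to 3 without 1 library. In 3D-EV against TGF-beta1 cells 0 were called, but 20 with DESeq2 and 0 to 2 without 1 library. Same-numbered libraries did not deviate together (18 pairs, r -0.066 to 0.045), so the numbers were not used for pairing. With a replicate block the log2 fold change of Ccn2 in TGF-beta1 against control cells was 0.52, that of Ccn1 0.14 (adjusted p = 0.125), and 2858 genes were called, against 3124. The block changed no call among the member tests run, which leave out 3D-EV against 2D-EV cells and Ccn2 in vesicle cells, and the ratio test gave p = 0.25 by an exact sign permutation, the smallest that 3 pairs allow. Depth was not limiting for Ccn1, Ccn2 and Ccn4, while Ccn3 lay at or near the limit of 3 counts.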
